A study of Rattus norvegicus with 10 samples.

Results

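The comparison described here sets 4 small RNA libraries of mechanically stimulated rats (MS) against 4 libraries of placebo rats (PLA), with both sampling times in 1 comparison and the time held as a block. These are 8 of the 10 libraries of the series, and were chosen by treatment and time in the labels alone. The other 2 libraries (CIA_B), taken before therapy, entered the fit only for the estimate of the spread and are given as a reference level. Of the 723 mature miRNAs listed in the count files, the 359 with at least 1 cpm (counts scaled to a common library total) in at least 5 of the 10 libraries were compared.

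All animals were female Wistar rats in which arthritis had been induced with collagen (CIA), and ether was the anaesthetic used for blood sampling in both arms. In the MS arm a short steel needle was put through the skin and twirled on both sides at points of the lower back and of the leg, and the tissue was taken 1 h after therapy (MS_E, 2 libraries) or after 34 days of it (MS_A, 2 libraries). In the PLA arm sterile saline was injected into the peritoneum instead, with the same 2 times (PLA_E and PLA_A, 2 libraries each). The placebo therefore differs from the stimulation in the site, kind and schedule of the injury as well as in the rotation of the needle. Saline was given weekly and stimulation every other day, and the methods describe the tissue as cut from around the stimulated points. The labels name muscle below the skin as the tissue, and the methods of the study describe subcutaneous tissue that includes muscle. Since the rats were killed at sampling, the times are different animals; no label says whether the libraries of a group are from separate rats, so a p-value measures only the spread between these libraries.

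MicroRNAs are short RNAs cut from hairpin precursors, and each hairpin can give a mature RNA from its 5′ arm and another from its 3′ arm. Loaded into an Argonaute protein, they repress messages that pair with the seed, a short stretch near the 5′ end. Many miRNA genes lie in clusters that are transcribed together, and striated muscle is known for its own set, the myomiRs, some of which sit inside genes of myosin heavy chains.

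The finding of the comparison rests on few miRNAs, and their mature sequences are shown first. The sequences are those of RefSeq (assembly GRCr8), which held 324 of the 359 compared, are written 5′ to 3′, and have the seed (bases 2 to 8) in capitals. The first group is from the imprinted Dlk1-Dio3 region of chromosome 6 and was higher after stimulation.
miR-379-5p: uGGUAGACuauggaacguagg
miR-329-5p: aGAGGUUUucugggucucuguuuc
miR-376c-3p: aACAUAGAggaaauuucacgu
miR-539-3p: cAUACAAGgguaauuucuuuuc
miR-496-3p: aGUAUUACauggccaaucucc
miR-433-3p: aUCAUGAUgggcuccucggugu

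The 6 seeds of these RNAs differ from each other, so that what they share is their place in the genome and not their pairing sequence. The next sequences are the other 2 that were higher after stimulation, from the Hoxd4 locus of chromosome 3 and from within Clcn5 on the X chromosome, and then the 3 that were lower. Both arms of the miR-499 hairpin, which lies within the myosin gene Myh7b, are among these 3. The lower miR-101b-3p is shown with miR-101a-3p, which has the same seed.
miR-10b-5p: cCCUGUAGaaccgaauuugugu
miR-501-3p: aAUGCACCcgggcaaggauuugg
miR-499-5p: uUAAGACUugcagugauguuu
miR-499-3p: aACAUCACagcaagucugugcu
miR-101b-3p: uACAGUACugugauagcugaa
miR-101a-3p: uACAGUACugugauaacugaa

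Read depth did not limit the abundant miRNAs but did limit the rare ones. The MS libraries held 5144552 to 8926170 counts and the PLA libraries 3050255 to 5723107. Levels are given in cpm after scaling by TMM, which corrects the library total for a few very abundant RNAs, and the TMM factors lay between 0.675 and 1.41. In every group 1 library held several times more of the muscle miRNA miR-1-3p than the other, a division that crosses the replicate numbers. As a check of the tissue, the 4 skeletal muscle miRNAs of the marker list summed to between 83894 and 268478 cpm in the 8 libraries, against 53.0 to 138 cpm for the 2 keratinocyte miRNAs. The library MS_E replicate 1 stood apart with 1895 cpm of the miRNAs of ciliated or secretory epithelium (at most 19.9 cpm in the other 7), and PLA_A replicate 1 with 14583 cpm of the leukocyte miRNAs (at most 3401 cpm in the other 7).

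Few miRNAs passed the call rule between stimulated and placebo tissue. The call rule is that of the study and joins a limit on the p before adjustment with one on the fold. With a limit of 0.05 and of 2-fold, 11 of the 359 miRNAs were called (3.06%), 8 higher and 3 lower (0.836%) after stimulation. In 10 simulated data sets of this design, with 200 miRNAs changed, the rule called 4.40% of unchanged miRNAs. It called 35.5% of those changed 2-fold, so the number called does not tell how many differ. An unadjusted p under 0.05 was reached by 16 (4.46%), and an adjusted p under 0.05 by 0 of 359 in edgeR (quasi-likelihood, Benjamini-Hochberg), the smallest being 0.798. The 13 other ways of fitting or scaling and the 8 fits with a library left out gave 0 as well, limma-voom and DESeq2 included. The calls depended on the scaling: with the library total in place of TMM, 10 miRNAs were called, 1 higher and 9 lower, and the median log2 fold change of all miRNAs moved from -0.03 to -0.30. Exchanging arms within each time cannot give a two-sided exact permutation p below 0.0556 with 8 libraries, and single miRNAs were not tested in this way.

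**Figure D1:**
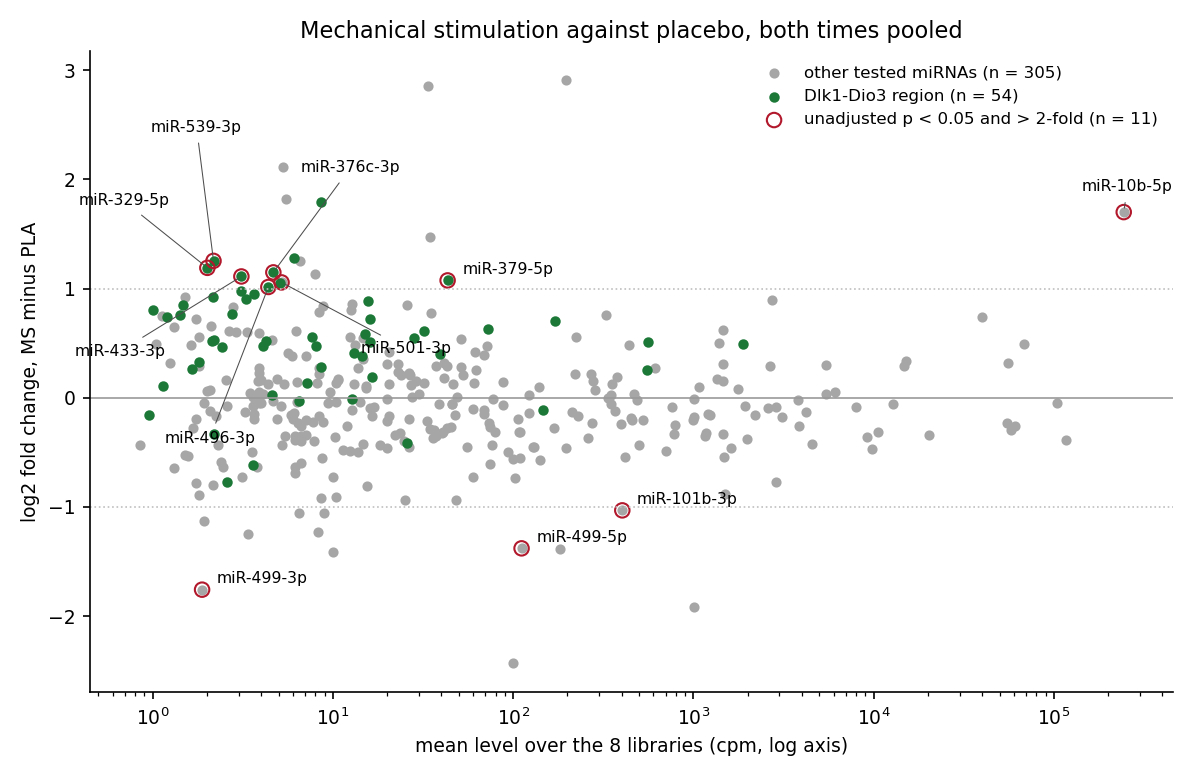
Log2 fold change of MS against PLA with both times pooled (vertical axis) against the mean level over the 8 libraries in cpm (horizontal log axis) for the 359 miRNAs compared. Red rings mark the 11 called miRNAs and green points the 54 miRNAs with a position in the Dlk1-Dio3 region, of which 46 lie above 0; the dotted lines are 2-fold changes.

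The most abundant miRNA was also the one with the largest called difference upward. miR-10b-5p, which is transcribed from within the Hoxd genes (chromosome 3, 80035886 to 80035907, plus strand), was at 713499 and 143090 cpm in MS_E and at 551575 and 87816 cpm in MS_A. In placebo it was at 70918 and 174440 cpm in PLA_E and at 84334 and 127036 cpm in PLA_A. Only MS_E replicate 1 and MS_A replicate 1 lay above every placebo library, and the other 2 stimulated libraries were within the placebo range. The means were 373995 ± 306601 cpm in MS and 114182 ± 46758 cpm in PLA (SD, n = 4 each), a log2 fold change of 1.70 with a standard error of 0.68 (edgeR, unadjusted p = 0.031, adjusted p = 0.798). Before therapy it was at 452283 and 205315 cpm, and the stimulated libraries lay on both sides of these values.

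In raw reads miR-10b-5p took 51.8% of the counts of MS_E replicate 1 and 37.2% of those of MS_A replicate 1, but 10.0% to 17.8% of those of the other 6 libraries. The Wilson 95% intervals of these shares are at most 0.0381 percentage points to either side, and cover counting error only. The 2 libraries with the high shares are the low miR-1-3p libraries of their groups and have the lowest TMM factors of the 8, at 0.726 and 0.675. Before therapy the shares were 34.5% and 21.9%, above those of every placebo library, and there the larger share was in the high miR-1-3p library. Set against the placebo library of the same time and the same miR-1-3p level, a matching chosen after the data were seen, miR-10b-5p was 4.09-fold and 4.34-fold higher in the low miR-1-3p libraries at 1 h and 34 days. In the high miR-1-3p libraries it was 2.02-fold higher at 1 h and 1.04-fold at 34 days. Its passenger arm miR-10b-3p was at 9.26 to 20.8 cpm in MS and 6.20 to 12.95 cpm in PLA, and its log2 fold change of 0.86 (standard error 0.40, unadjusted p = 0.051 in edgeR) missed the threshold. miR-10b-5p itself stayed called in 4 of the 8 fits with a library left out: without replicate 1 of MS_E the value was 1.03 (unadjusted p = 0.169 in edgeR) and without that of MS_A 1.13 (unadjusted p = 0.186), and without replicate 1 of PLA_E or of PLA_A it was 1.48 (unadjusted p = 0.083) or 1.67 (unadjusted p = 0.062). For its paralog miR-10a-5p, from the Hoxb genes, the log2 fold change was 0.74 (standard error 0.64, unadjusted p = 0.276 in edgeR).

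The other calls in the upward direction came mostly from 1 place. Of the 8 miRNAs called higher (2.23% of those compared), 6 lie in the Dlk1-Dio3 region of chromosome 6. The region held 54 of the 324 compared miRNAs with a RefSeq position. In this imprinted stretch a long maternal transcript carries one of the largest miRNA clusters of mammals. miR-379-5p, the first hairpin of the distal part and the most abundant of the 6, was at 80.3 and 74.8 cpm in MS_E, 21.8 and 58.5 cpm in MS_A, 39.1 and 33.4 cpm in PLA_E, and 23.7 and 14.6 cpm in PLA_A. Stimulated libraries were higher at 1 h without overlap, while at 34 days 1 of them lay between the placebo libraries. Its log2 fold change was 1.07 (standard error 0.46, unadjusted p = 0.041 in edgeR). It was lower at 34 days than at 1 h in both arms, a difference that was not tested, and before therapy it was at 71.0 and 19.3 cpm.

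The other 5 of the region were rare. miR-539-3p was at 2.93 and 6.24 cpm in MS_E and 1.90 and 1.95 cpm in MS_A, and at 0.804 and 1.66 cpm in PLA_E and 0.996 and 0.911 cpm in PLA_A. Every stimulated library was above every placebo library, which held for 2 of the 359 miRNAs (0.557%), the other being miR-23b-3p at 1264 to 2334 cpm against 1029 to 1263 cpm. With the library total in place of TMM no miRNA was so, and 23 (6.41%) were lower in every stimulated library. For miR-539-3p the log2 fold change was 1.25 (standard error 0.59, unadjusted p = 0.029 in edgeR) on 4 to 40 counts a library.

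The smallest p of all was that of miR-329-5p, whose log2 fold change was 1.19 (standard error 0.49, unadjusted p = 0.015 in edgeR). It was at 3.40 and 3.90 cpm in MS_E, 2.85 and 1.58 cpm in MS_A, 1.07 and 1.93 cpm in PLA_E, and 0.249 and 1.09 cpm in PLA_A, which is 1 to 25 counts a library. The stimulated libraries were higher at each time without overlap, and it alone of the 11 stayed called whichever of the 8 libraries was omitted, though not with the library total as scale, where it was 0.99. The other 10 stayed called in 2 (miR-379-5p) to 6 (miR-499-3p and miR-539-3p) of these 8 fits. The log2 fold changes of miR-376c-3p, miR-433-3p and miR-496-3p were 1.15, 1.11 and 1.01 (standard errors 0.46, 0.52 and 0.46). The replicate 1 library of MS_A was at 2.13, 1.19 and 2.61 cpm of these 3, just below every placebo library for miR-376c-3p and within the placebo range for the other two. By position, without regard to strand, miR-433-3p lies within the span of the retrotransposon-derived gene Rtl1, in the proximal part of the region, apart from the others.

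**Figure D2:**
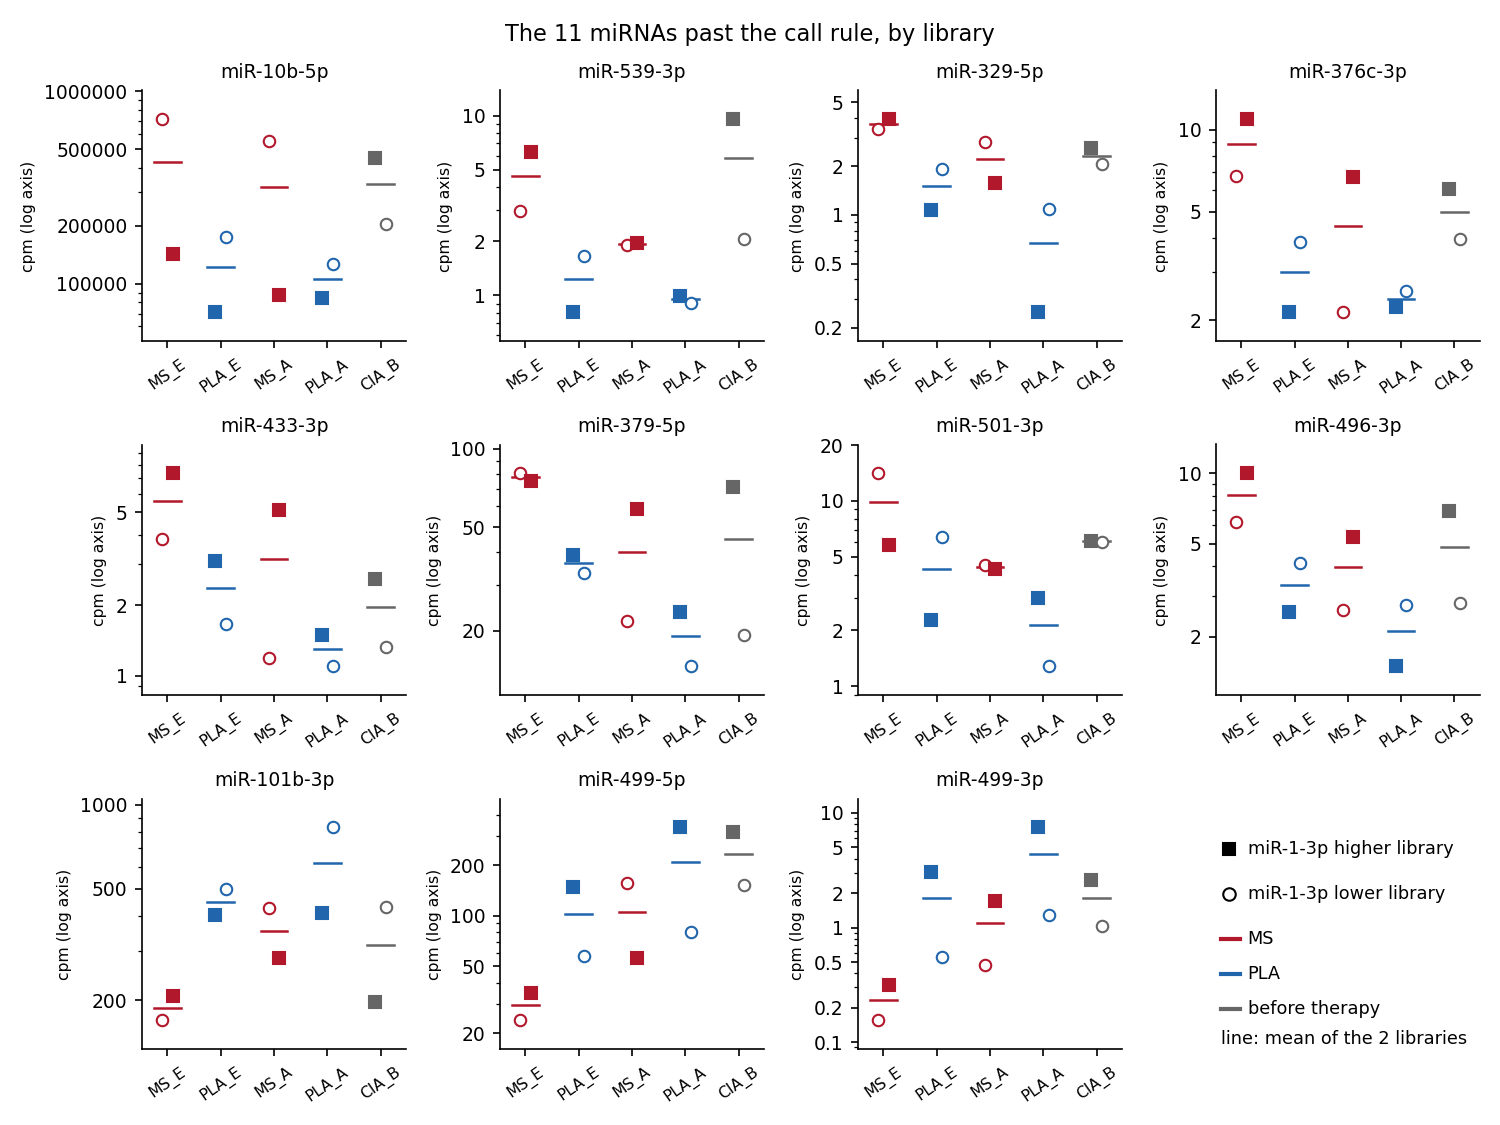
Level in cpm (vertical log axes) of the 11 called miRNAs in each of the 10 libraries, by group; filled squares are the library with the higher miR-1-3p of its group, open circles the lower, and lines the mean of 2 libraries. Both MS libraries with open circles hold the highest miR-10b-5p, and miR-539-3p is the only panel in which all 4 MS libraries lie above all 4 PLA libraries.

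Across the whole cluster the direction was shared more than the calls were. By name, 47 miRNAs of the Dlk1-Dio3 list were compared, of which 38 were higher and 9 lower after stimulation, against 171 of all 359 (47.6%) and 133 of the 312 outside the list. Their median log2 fold change was 0.51, against -0.03 over all miRNAs, and it was 0.63 at 1 h and 0.35 at 34 days. Higher at both times were 32 of the 47, against 110 of the 359. Past the thresholds were 4 of the 47, all higher, against 8 higher of all 359 (2.23%), and 6 had an unadjusted p under 0.05 in edgeR, against 16 of all 359 (4.46%). With the library total in place of TMM 34 of the 47 were higher with a median of 0.27, and the 1 call was lower. Leaving out a library gave 0 calls (without MS_E replicate 2, of 14 among all 359) to 7 (without MS_A replicate 1, of 16). Since these RNAs share a transcript and the libraries, they are not separate pieces of evidence.

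By position, a grouping added after the data were seen, the region from miR-493 to miR-410 (chromosome 6, 134314744 to 134579828, plus strand, GRCr8) held 54 of the 324 miRNAs with a RefSeq position. The compared arms miR-127-5p (0.14) and miR-136-5p (-0.14) had no entry there and are not counted by position. Its distal part is the block from miR-379 to miR-410 (134543460 to 134579828), where 37 of 40 were higher, 31 of them at both times, with a median log2 fold change of 0.67 and 5 calls. The 3 lower ones there were miR-379-3p, miR-380-3p and miR-668, at -0.03, -0.33 and -0.16. In the cluster at its proximal end (134306550 to 134331404), which also takes in miR-673-3p from outside the 54, 8 of 13 with a position were higher, with a median of 0.38. Both arms of miR-540 were lower there, at -0.61 and -0.77, beside the higher arms of miR-493, miR-337 and miR-434. The largest fold changes of the block were those of miR-494-3p at 1.79 (standard error 1.27, unadjusted p = 0.166 in edgeR) and miR-539-5p at 1.28 (standard error 0.77, unadjusted p = 0.104), neither of which passed the test.

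**Figure D3:**
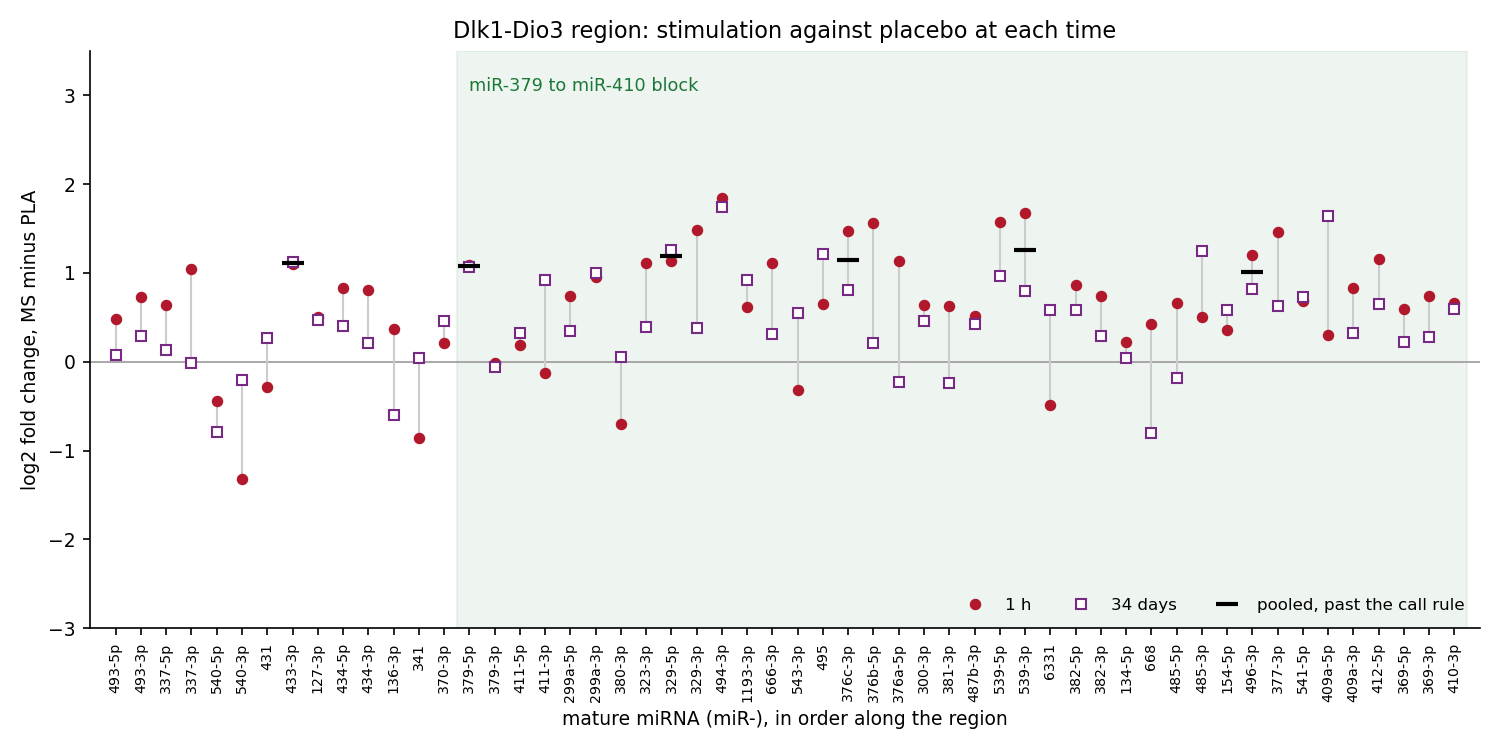
Log2 fold change of MS against PLA at 1 h (red circles) and 34 days (open squares) for the 54 miRNAs with a position in the Dlk1-Dio3 region, in their order along the region; black bars give the pooled value of the 6 called ones. In the shaded block of 40 miRNAs 31 are above 0 at both times, while both arms of miR-540 outside it are below 0 at both.

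The block was counted deeply for only a few of its members, with a median of 27.8 mean counts a library over the 40, and 7 of them under 10 counts. The most abundant, miR-411-5p, was at 415 to 798 cpm in MS and 309 to 731 cpm in PLA, and its log2 fold change of 0.25 (standard error 0.28) was within its error. The summed level of the block was 1342 and 1798 cpm in MS_E, 731 and 1232 cpm in MS_A, 978 and 1301 cpm in PLA_E, and 631 and 794 cpm in PLA_A. At each time the stimulated libraries were the higher ones on average, and only at 1 h were both above both placebo libraries. Over both times the arms overlapped.

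The difference of the block was unequal between the libraries of an arm. As the median deviation of log2(cpm + 1) from the mean of the 8 libraries, its level was 0.46 and 0.90 in MS_E replicates 1 and 2, -0.50 and 0.20 in MS_A, -0.18 and 0.25 in PLA_E, and -0.36 and -0.59 in PLA_A. With the library total in place of TMM, the block in MS_E replicate 1 was at 0.11, below PLA_E at 0.17 and 0.21. The medians of all miRNAs were then -0.49 in MS_E replicate 1, and 0.37 and -0.11 in PLA_E. MS_E replicate 2 held the highest value of the 8 libraries for 24 of the 40 miRNAs. Matched on time and miR-1-3p level, the high miR-1-3p library of MS exceeded that of PLA in 38 of 40 miRNAs at 1 h and in 36 of 40 at 34 days, with median log2 ratios of 1.16 and 0.62. In the low miR-1-3p libraries this was so in 24 of 40 and 20 of 40, with median log2 ratios of 0.15 and -0.02. Higher in all 4 matched pairs were 11 of the 40, against 32 of all 359 (8.91%). Whether the difference between the 2 kinds of library is more than their spread was not tested.

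**Figure D4:**
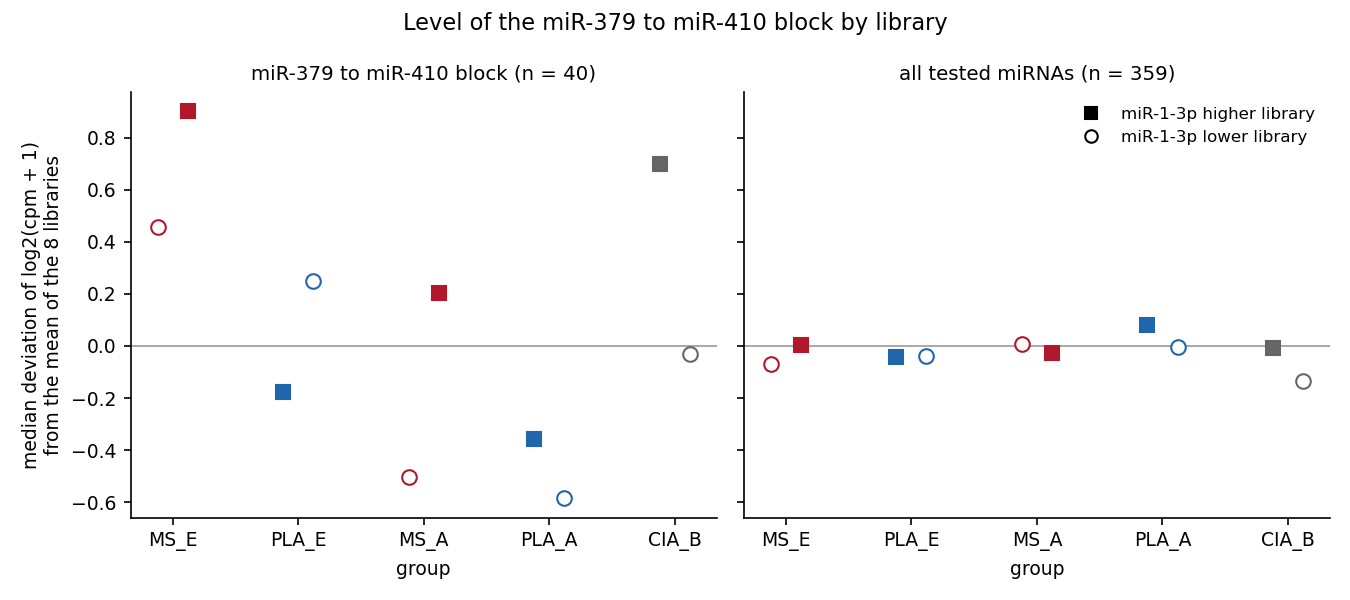
Level of the miR-379 to miR-410 block (left, 40 miRNAs) and of all miRNAs compared (right, 359) in each library, as the median deviation of log2(cpm + 1) from the mean of the 8 libraries; squares are the high and circles the low miR-1-3p library of each group. For the block, MS_E replicate 2 is highest at 0.90 and PLA_A replicate 2 lowest at -0.59. The median of all miRNAs stays between -0.133 and 0.082 in the 10 libraries, since scaling by TMM itself brings it near 0. With the library total only it runs from -0.49 in MS_A replicate 1 to 0.41 in PLA_A replicate 1.

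Under each scaling tried the block kept its direction, though not its calls. With the library total only, 33 of the 40 were higher and 0 were called, and the median stood 0.74 above that of all miRNAs, against 0.70 with TMM. In DESeq2 37 of 40 were higher and 7 were called. Without PLA_E replicate 1 the count was 33 of 40 with 2 calls, and without MS_E replicate 2 it was 34 of 40 with 2 calls. Leaving out MS_A replicate 1 or 2 gave 8 or 3 calls.

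A second clustered group moved little but in 1 direction. The hairpins of miR-322, miR-503, miR-351, miR-542 and miR-450a lie together on the X chromosome, and miR-322 and miR-503 are known to rise in muscle differentiation. All 9 of their compared arms were higher after stimulation, 7 at both times, with a median log2 fold change of 0.22 and 0 calls. Its median deviation was -0.14 to 0.27 in the MS libraries and -0.33 to -0.01 in the PLA libraries, so the arms overlapped. With the library total in place of TMM 3 of the 9 were higher and the median was -0.07, where that of all miRNAs was -0.30, so relative to all miRNAs the group lay above them under both scalings. This group, too, was singled out after its values were seen.

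Of the remaining calls, miR-501-3p was the other higher one. This RNA, which lies within the chloride channel gene Clcn5, was at 14.0 and 5.78 cpm in MS_E, 4.51 and 4.27 cpm in MS_A, 2.28 and 6.34 cpm in PLA_E, and 2.99 and 1.28 cpm in PLA_A. Its log2 fold change was 1.06 (standard error 0.47, unadjusted p = 0.037 in edgeR), and PLA_E replicate 2 was above 3 of the 4 stimulated libraries. Without MS_E replicate 1 the value was 0.72 (unadjusted p = 0.141 in edgeR). Higher by less than 2-fold but with an unadjusted p under 0.05 in edgeR were miR-299a-3p (0.98), miR-495 (0.91) and miR-541-5p (0.70), all of the block, and miR-146b-5p (0.90). The last, which is induced by inflammatory signals, was at 7429, 2306, 3180 and 1521 cpm in the stimulated libraries and at 1433 to 2644 cpm in placebo, so that MS_E replicate 1 carried most of its difference.

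Of the 2 miRNAs of slow fibres, miR-499-5p was called lower after stimulation and miR-208b-3p was not called in edgeR with TMM. DESeq2 called miR-208b-3p, among 20 calls, and so did the library total only, among 10. miR-499-5p, which is made from the intron of the myosin gene Myh7b and represses regulators of the fast fibre program, was at 23.8 and 34.8 cpm in MS_E and at 156 and 55.9 cpm in MS_A. In placebo it was at 147 and 57.4 cpm in PLA_E and at 335 and 79.8 cpm in PLA_A. The arms were apart at 1 h and overlapped at 34 days. The log2 fold change was -1.38 (standard error 0.56, unadjusted p = 0.034 in edgeR), with means of 67.6 ± 60.3 cpm in MS and 155 ± 126 cpm in PLA (SD, n = 4 each). The level before therapy was 313 and 153 cpm, above 7 and 6 of the 8 later libraries. The study lists this miRNA for stimulation against placebo, so its direction here is not independent evidence.

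The 3′ arm of the same hairpin, miR-499-3p, was lower by -1.76 on the log2 scale (standard error 0.78, unadjusted p = 0.016 in edgeR) on 1 to 30 counts a library. miR-208b-3p, encoded within the slow myosin gene Myh7, had the same size of difference, -1.38, but with a standard error of 0.71 and an unadjusted p of 0.078 in edgeR. It was at 32.7 to 247 cpm in MS and 55.7 to 690 cpm in PLA. PLA_A replicate 1 was the highest library for all 3, and without it the median log2 fold change of miR-499-5p and miR-208b-3p was -0.75 in place of -1.38, and neither arm of miR-499 was called. In the matched pairs miR-499-5p was lower in 3 of 4 and 1.94-fold higher in the low miR-1-3p libraries at 34 days. In bulk tissue, fewer cells of a type and less RNA per cell cannot be told apart.

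Of the general muscle miRNAs 0 of 4 were called. Over miR-1-3p, miR-133a-3p, miR-133b-3p and miR-206-3p the median log2 fold change was -0.06, with 1 higher and 3 lower. For miR-1-3p it was 0.32 with a standard error of 1.04, with a wide spread within the arm, at 11905, 100664, 12058 and 122962 cpm in MS and 90887, 11313, 80400 and 15564 cpm in PLA. The difference was far within the spread between these libraries.

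The other lower call was miR-101b-3p, which shares its seed with miR-101a-3p and is known to repress the histone methyltransferase Ezh2. It was at 169 and 206 cpm in MS_E, 426 and 283 cpm in MS_A, 402 and 498 cpm in PLA_E, and 410 and 830 cpm in PLA_A. Stimulated libraries were lower at 1 h without overlap, and at 34 days MS_A replicate 1 lay between the placebo libraries. The log2 fold change was -1.03 (standard error 0.35, unadjusted p = 0.015 in edgeR), and it was lower in all 4 matched pairs, as were 27 of all 359 miRNAs (7.52%). miR-101a-3p was at 1390 to 2951 cpm in MS and 2775 to 5615 cpm in PLA, and its log2 fold change was -0.77 (standard error 0.35, unadjusted p = 0.049 in edgeR). The 2 sequences are alike over nearly their whole length, so reads of one may have been counted for the other.

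Among the 324 miRNAs with a RefSeq sequence, seeds held by 3 or more numbered 10, of which 2 had every such member lower and 1 had every such member higher. The miR-29 family, which represses collagens and other matrix messages, had all 3 members lower at both times, miR-29b-3p by -0.94, miR-29a-3p by -0.54 and miR-29c-3p by -0.54 (standard errors 0.43, 0.28 and 0.40), and 0 of 3 called. With a library left out miR-29b-3p lay between -1.26 (without PLA_E replicate 2) and -0.50 (without PLA_E replicate 1), and it was called without PLA_E replicate 2 and without MS_E replicate 2 (-1.15). miR-29b-3p was at 25.2, 42.6, 28.7 and 34.4 cpm in stimulated libraries and at 91.0, 21.5, 65.5 and 75.3 cpm in placebo. PLA_E replicate 2 was thus the lowest of all 8, and the other 3 placebo libraries were above every stimulated one. The miR-181 family was lower in 4 of 4, by 0.06 to 0.31 on the log2 scale, again with 0 called, and was 2 of 4 without PLA_E replicate 2. The seed CCCUGAG, of miR-125a-5p, miR-125b-5p and miR-351-5p, had 3 of 3 higher at both times with a median of 0.17 and 0 called. With the library total it was 1 of 3, with a median of -0.20 against -0.30 over all miRNAs, and without MS_E replicate 1 it was 1 of 3 with a median of -0.05. In the let-7 family, 7 of 8 were lower with a median of -0.14, and let-7a-5p and let-7c-5p were among the 5 miRNAs of at least 100 cpm with the narrowest range over the 8 libraries. The former spanned 4698 to 6364 cpm.

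In the lists of other cell types 0 miRNAs were called and 0 had an unadjusted p under 0.05 in edgeR, and the medians farthest from 0 changed sign without a single library. Of 4 compared members of the miR-200 family of epithelium 4 were higher, with a median of 1.36 that was -0.05 without MS_E replicate 1. The 2 miRNAs of ciliated or secretory epithelium, namely miR-34c-5p with miR-449a-5p, showed a median of 2.88 that was -0.47 without the same library. The leukocyte list had a median of -0.88, with 2 of 5 higher, which was 0.39 without PLA_A replicate 1. miR-142-5p, the leukocyte miRNA in the study's list, was at 226 to 303 cpm in MS and at 372, 240, 5854 and 551 cpm in PLA, and its log2 fold change was -1.92 (standard error 0.96, unadjusted p = 0.074 in edgeR). The part of these cells in the other results was not tested. All 11 called miRNAs kept their direction without either library, though some were smaller. Without MS_E replicate 1 miR-10b-5p was at 1.03 and miR-501-3p at 0.72. Direction alone does not show what these cells contributed.

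The endothelial, smooth muscle, fibroblast, adipose, keratinocyte, neural, cartilage and erythroid lists had medians between -0.35 and 0.28, with 0 called. The lists of wound healing and repair (5 of 10 higher, median -0.07), of inflammation-induced miRNAs (5 of 7 higher, median 0.31) and of the miR-17/92 cluster (4 of 9 higher, median -0.15) had 0 called as well in edgeR with TMM. With the library total as scale 2 of 7 in the inflammation list were higher, with a median of -0.15 against -0.30 over all miRNAs. That scale called its member miR-147, among 10 calls, and so did the total without the muscle miRNAs, among 6. In the wound healing list miR-31a-5p, which is induced in wounded epidermis, had the largest difference, 2.11 (standard error 1.12, unadjusted p = 0.065 in edgeR), at 25.0 and 9.96 cpm in the low miR-1-3p libraries of MS and at most 3.48 cpm in the other 6. DESeq2 called miR-31a-5p, among 20 calls. miR-21-5p, abundant and induced by injury, differed by -0.42 on the log2 scale (standard error 0.34).

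Besides miR-499-5p and miR-142-5p, the study lists miR-33-5p and miR-375-3p for stimulation against placebo. miR-33-5p, from an intron of the sterol regulator Srebf2 and a repressor of cholesterol export, was at 0.781 to 3.41 cpm in MS and at 3.62, 0.552, 7.72 and 8.38 cpm in PLA. Its log2 fold change was -1.24 (standard error 0.66, unadjusted p = 0.060 in edgeR). miR-375-3p was at 81.2 cpm in MS_E replicate 1 and at 0.156 to 0.474 cpm in the other stimulated libraries, against 1.64 to 8.97 cpm in placebo. Its pooled value of 0.55 had a standard error of 2.53 and was -2.87 without that library. These 4 were chosen by the study on the same libraries.

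The 2 times gave the same sign for 222 of the 359 miRNAs (61.8%), and all 11 called ones were among them. Choosing those 11 by the pooled difference favours an equal sign, so this is not separate support. Of all 359, 187 were higher at 1 h (52.1%) and 170 at 34 days (47.4%). At 1 h alone 14 miRNAs were called (3.90%), 11 higher and 3 lower, and at 34 days alone 7 (1.95%), 1 higher (0.279%) and 6 lower (1.67%). The difference of the change between the times had an unadjusted p under 0.05 for 12 miRNAs (3.34%) and an adjusted p under 0.05 for 0 in edgeR. All 12 had the more negative change at 34 days; over the miRNAs compared, the change was the more positive one at 34 days in 162 (45.1%). Those with the smallest p of this difference were miR-141-3p, miR-363-3p, miR-142-5p, miR-675-3p and miR-375-3p. MS_E replicate 1 was the highest stimulated library, or PLA_A replicate 1 the highest placebo library, for 4 of these 5. The exception, miR-675-3p from the imprinted H19 transcript, was at 32.4 and 43.6 cpm in MS_E, 8.78 and 10.8 cpm in MS_A, 19.2 and 14.6 cpm in PLA_E, and 16.4 and 12.9 cpm in PLA_A. It was thus higher after stimulation at 1 h and lower at 34 days, without overlap at either time.

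**Figure D5:**
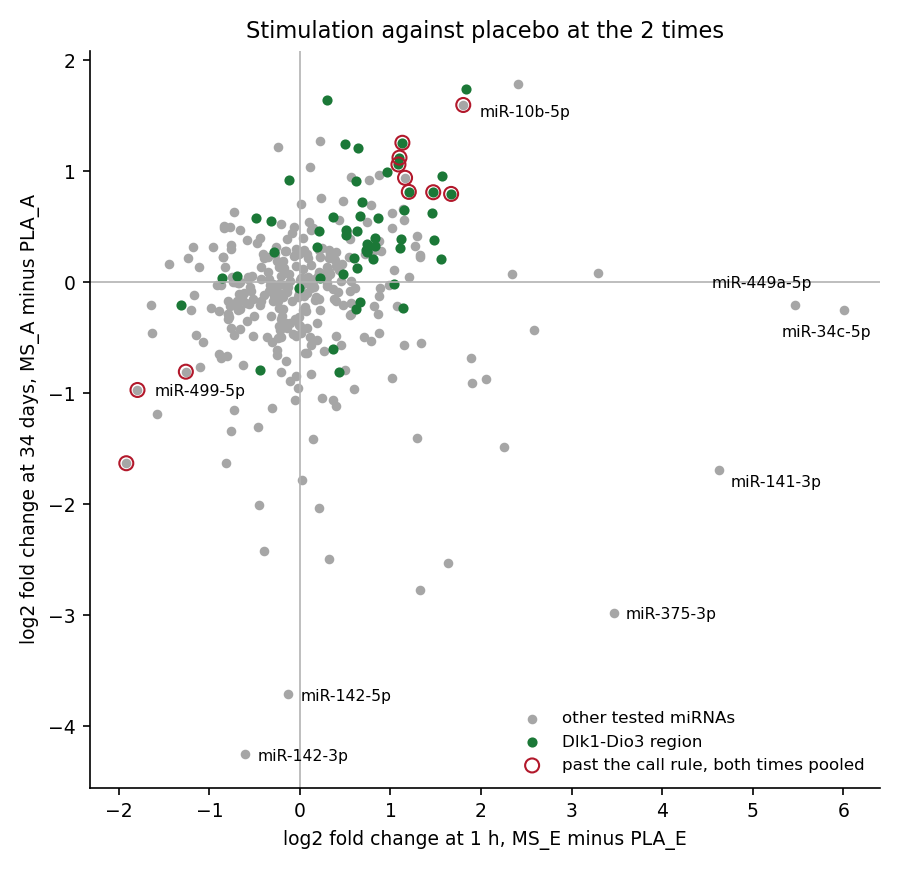
Log2 fold change of MS against PLA at 34 days (vertical axis) against that at 1 h (horizontal axis) for the 359 miRNAs compared, with the called ones ringed and the Dlk1-Dio3 region in green. The 11 called miRNAs lie in the quadrants of equal sign, which their choice by the pooled difference favours. miR-34c-5p and miR-449a-5p are far from 0 only at 1 h and the miR-142 arms only at 34 days.

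How much of the spread the treatment took was measured for each miRNA by dividing the squared deviations of log2(cpm + 1) over the 8 libraries. The arm took a median of 9.07%, the time 8.79% and the arm by time 4.84%, while 65.0% lay between libraries of the same group. The division by miR-1-3p level held a median of 26.8%. It was made from these same counts, whereas arm and time were set by the design, so its share is partly built in. Summed over the 359 miRNAs, the arm took 10.9% of the squared deviations with 14.3% of the degrees of freedom. The spread within groups took 67.6% with 57.1% of them, and the miR-1-3p division, which is part of it, 40.3% with 14.3%. That division was the largest single term for 182 of the 359 miRNAs and the arm for 67. miR-339-3p, with 66.4% by arm, had the largest such share, and among the called ones miR-329-5p (58.3%) and miR-539-3p (56.8%) were followed by miR-101b-3p (53.8%).

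Whole profiles did not sort by arm. Spearman's rho between libraries over the 359 miRNAs had a median of 0.922 within an arm (12 pairs) and 0.924 across arms (16 pairs), but 0.951 between libraries of the same miR-1-3p level against 0.917 between those of different level. For 4 of the 8 libraries the most alike library was of the same arm. The correlations are across miRNAs, which are not independent, and the miR-1-3p levels were taken from the same counts.

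The 10 most abundant miRNAs took 78.3% to 87.7% of the counts in MS and 73.1% to 81.8% in PLA. After miR-10b-5p these were miR-22-3p, miR-133a-3p, miR-26a-5p, miR-30a-5p, miR-143-3p, miR-1-3p, miR-378a-3p, miR-10a-5p and miR-27b-3p, and of these 9 further miRNAs 0 were called. miR-26a-5p was at 58828 to 101951 cpm in MS and 52220 to 59460 cpm in PLA, higher at each time without overlap, though MS_E replicate 2 lay just below PLA_A replicate 2 of the other time. Separation of this kind at both times was seen for 9 higher miRNAs (2.51%) and 3 lower (0.836%). Of the 9, miR-329-5p, miR-299a-3p, miR-495, miR-539-3p and miR-541-5p belong to the miR-379 to miR-410 block.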

How the data were processed

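Small RNA libraries (TruSeq kit, HiSeq 2000) of the 10 tissue samples were compared as grouped by the labels. The authors demultiplexed with CASAVA 1.8, trimmed adapters, aligned to rn4 and miRBase with miRDeep2, and deposited whole read counts per precursor without normalization. A read can count at several precursors, and each mature miRNA was given its highest precursor count (35 miRNAs were listed more than once). A series table with 20 value columns was not used.

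Counts were scaled by TMM and fitted on the 10 libraries with time and arm as terms by edgeR 4.0.16 (quasi-likelihood, prior count of 2) in R 4.3.3, after a filter of at least 1 cpm in at least 5 libraries, which kept 99.97% of counts. Times were also fitted with a mean per group. Fold changes are log2 values of MS minus PLA. The scripts were tested on simulated data. Total counts per library were 1513799 to 8926170, and intervals cover counting error only. The 2 libraries of each group differed far beyond counting noise (chi-square per degree of freedom of 1591 or more), so none was taken as a duplicate. Alternatives were limma-voom (limma 3.58.1), DESeq2 1.42.0, other scalings, filters, terms, sums over precursors, and each library left out.

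Named miRNAs were all called ones, the 10 with the smallest p, the 10 most abundant, the 4 listed by the study, the extremes and most abundant of each list, the 5 with the smallest p of the difference between times, and the 5 of at least 100 cpm with the narrowest range; others were chosen after their values were seen. The comparison, members and lists were chosen with earlier results of these data known. Gene positions are from RefSeq (GRCr8), not rn4. Python 3.11.15, pandas 2.3.3, scipy 1.17.1 and matplotlib 3.10.9 made the tables and figures.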

Additional observations from a re-analysis of the deposited data

Results flagged for a closer look

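Among the named miRNAs, 144 groups of 4 libraries were examined for a library far from the other 3 on the log2(cpm + 1) scale, and 8 were found, where chance marks about 1 in 20. In MS_E replicate 1, 4 miRNAs of epithelia stood above the other stimulated libraries: miR-375-3p at 81.2 cpm (others at most 0.474), miR-200b-3p at 34.1 cpm (at most 1.72), miR-141-3p at 220.0 cpm (at most 5.22) and miR-449a-5p at 258 cpm (at most 1.83). In the same library miR-128-3p was low at 158 cpm (others 488 to 556) and miR-196a-5p at 277 cpm (others 394 to 402). In PLA_E replicate 2, miR-144-3p was low at 0.828 cpm (other placebo libraries 9.65 to 14.0) and miR-29c-3p at 277 cpm (others 551 to 564). None of these 8 is among the called miRNAs. The difference between the times reached an adjusted p under 0.05 for 0 miRNAs in edgeR with all libraries.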

How the results depend on the processing

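The count of 11 called miRNAs became 20 in DESeq2, 6 with the library total without the muscle miRNAs, 30 without a filter, 5 with a mean of at least 100 counts, and 7 with the replicate number as a block. With the library total only it was 10, 1 of them higher. Of the 11, 7 stayed called in limma-voom (9 calls in all), with the mean of the 2 times (12) and without the time block (13). With the miR-1-3p division 8 stayed called (11 calls in all), and with the library total only 4. The number called with 1 library left out was 4 (without PLA_E replicate 1) to 20 (without PLA_E replicate 2). The number with an unadjusted p under 0.05 was 7 with the library total without the muscle miRNAs, 35 without a filter and 26 with the miR-1-3p division as a term, and 4 to 23 with a library left out; adjusted, it was 0 throughout. For the difference between times the 12 became 4 in limma-voom, 7 with the library total only, 5 with that total without the muscle miRNAs, 7 with a mean of at least 100 counts and 7 with the replicate block, and 3 (without MS_E replicate 1) to 17 (without MS_E replicate 2) with a library left out, where an adjusted p under 0.05 was reached by 0 to 3 (without MS_E replicate 2: miR-449a-5p, miR-141-3p and miR-375-3p, whose stimulated 1 h value is then the other replicate alone, assumed to vary like the other groups). At 1 h the 14 became 9 in limma-voom, 5 with the library total without muscle miRNAs, 29 without a filter, 8 with a mean of at least 100 counts and 22 with the miR-1-3p division, and 7 (without MS_E replicate 1) to 35 (without MS_E replicate 2) with a library left out. At 34 days the 7 became 1, 2 and 14 in limma-voom, the stricter filter and with that division, 4 with the replicate block, and 2 (without PLA_A replicate 1) to 14 (without PLA_A replicate 2) with a library left out. Without overlap were 23 miRNAs, all lower, with the library total only, and 1 of at least 100 mean counts. The share of the arm was 9.22% with a pseudocount of 5 and 11.2% with the library total, and that of the miR-1-3p division 26.1% and 31.4%. miR-375-3p turned to -0.88 in limma-voom, -0.011 in DESeq2, -0.079 and -0.27 with the 2 library totals, and -0.10 with the miR-1-3p division, and spanned -2.87 to 2.05 with a library left out. The 11 called miRNAs kept their direction under every alternative and left-out library in which they were fitted. The replicate numbers do not pair the libraries (correlations of same-numbered libraries from -0.55 to 0.63), so the block is given here alone; with it miR-10b-5p (1.24), miR-433-3p (1.05), miR-501-3p (1.03) and miR-101b-3p (-0.98) were no longer called. Rare miRNAs, with few counts a library, are limited by depth. The cause of these shifts was not tested.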
